A study of Mus musculus with 12 samples.

Results

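The genes described here are 42 listed genes of stroma, pericytes and extracellular matrix, out of 48709 genes in the count table, and all 42 reached 10 or more counts in 3 or more of the 12 islet libraries. Membership follows a list of gene names and that count minimum, and the list was drawn up with earlier results of these data known. RNA was sequenced from pancreatic islets of female mice of the immunodeficient NSG strain that were heterozygous for RIP-DTR, a transgene in which the rat insulin promoter drives the receptor for diphtheria toxin. The 4 groups of 3 libraries are CTRL, untreated mice, and mice given diphtheria toxin (DT) and taken at 1, 3 or 5 DPA, a label taken to mean days post-ablation. CTRL mice carry the transgene too but had no toxin, so giving the toxin and losing beta cells cannot be told apart. The toxin receptor is driven in beta cells, and the mice lack lymphocytes of their own. Neither ages nor pooling of animals is given in the sources used here. Nothing states that each library of a group is a different animal, so the spread behind each p-value may be technical.

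Islets are threaded by capillaries, and the cells around and between them make the matrix. Endothelial cells and pericytes lay down the basement membrane, a sheet of type IV collagen and laminins on which beta cells rest. Fibroblasts and stellate cells make the fibrillar collagens, proteoglycans and crosslinking enzymes of interstitial tissue, and the same genes are the usual readout of wound repair and fibrosis. In bulk RNA, fewer cells of a type and less RNA per cell cannot be told apart.

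Total counts per library ran from 29867083 to 50012558. The 10 endocrine markers checked (insulin, glucagon and other hormone and beta cell genes) were present in every library and together took 215739 to 247320 CPM (counts scaled to library size) in CTRL, 142196 to 190282 CPM at 1 DPA, 199084 to 240927 CPM at 3 DPA and 191701 to 247466 CPM at 5 DPA, so the tissue label holds. The 42 genes together took 0.580%, 0.448% and 0.248% of all counts in CTRL, 0.233%, 0.258% and 0.284% at 1 DPA, 0.568%, 0.420% and 0.559% at 3 DPA and 1.22%, 0.730% and 0.757% at 5 DPA (replicates 1 to 3). The 5 DPA libraries lie above all others, and CTRL replicate 3 lies among the 1 DPA libraries. CTRL replicate 3 was the lowest CTRL library for 41 of the 42 genes (over all genes tested it was the lowest for 32.8%), and for 25 genes it was below every 1 DPA library (40.9% of all genes tested). At 5 DPA, replicate 1 was the highest library for 37 genes (33.6% of all genes tested). Calls against CTRL are therefore given with and without CTRL replicate 3. That choice was made after seeing these same genes, so the fits without that library are no independent support. Leaving out the lowest CTRL library of a gene raises its CTRL mean.

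**Figure D1:**
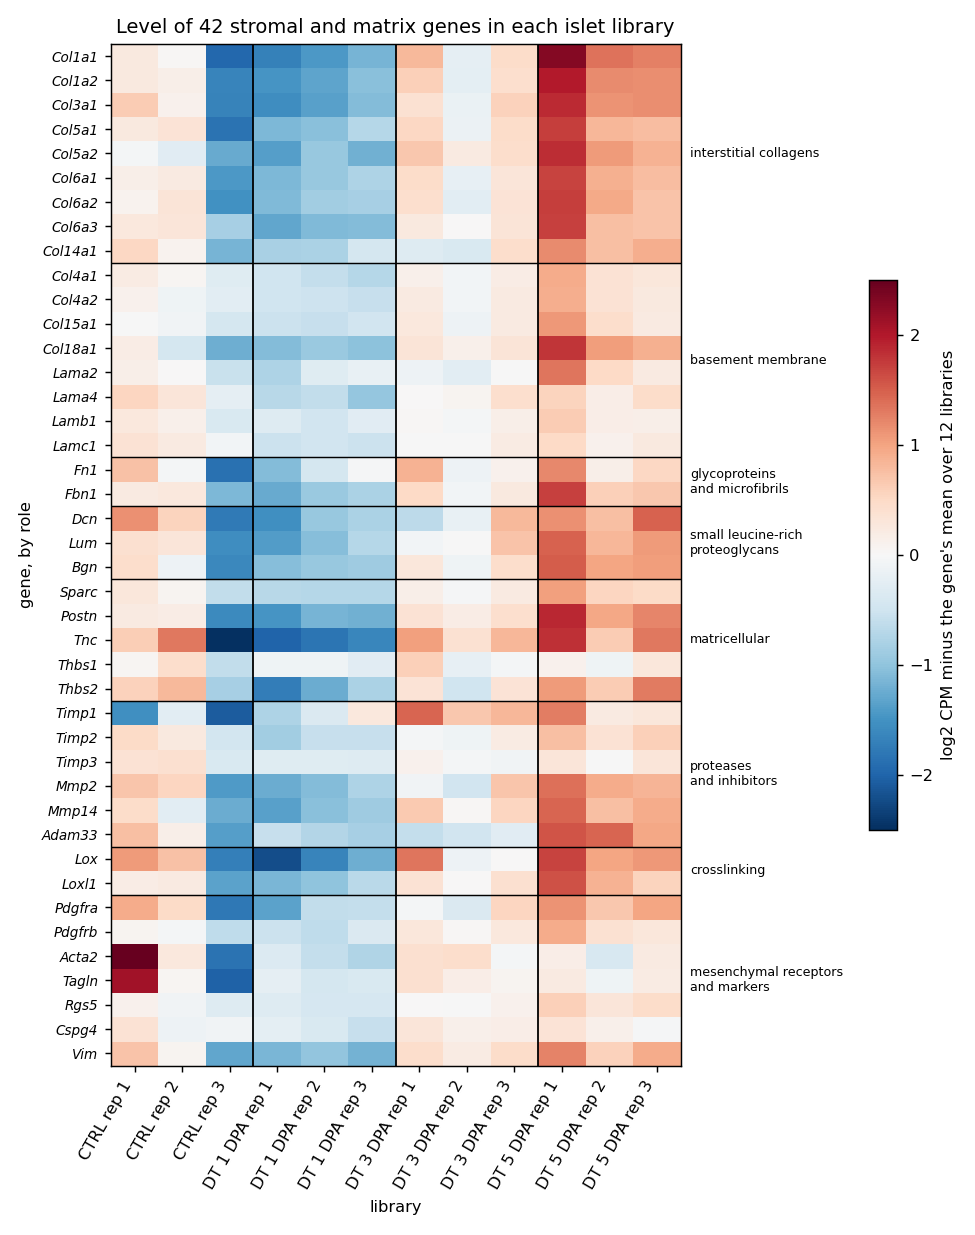
Level of each of the 42 genes (rows, by role) in each of the 12 libraries (columns), as log2 CPM minus the gene's mean over the libraries; red is above and blue below that mean, and values beyond the colour bar take its end colour. Most genes are blue in CTRL replicate 3 and in the 3 libraries of 1 DPA, and red in the 3 libraries of 5 DPA, deepest in replicate 1.

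Stromal and matrix genes were low at 1 DPA and high at 5 DPA. The group mean was lowest at 1 DPA for 41 of the 42 genes, Timp1 being the exception, and highest at 5 DPA for 37. Of all genes tested, 43% had their lowest mean at 1 DPA and 24.2% their highest at 5 DPA. At 5 DPA against 1 DPA, 37 of the 42 genes rose and none fell, where 26.3% of the 17294 genes tested rose and 29.8% fell (edgeR quasi-likelihood test, Benjamini-Hochberg adjusted p under 0.05, used for every call here). All 42 had a positive log2 fold change in that comparison, from 0.26 to 3.15 with a median of 2.02, and the median of all genes tested was 0.012. Every 5 DPA library was above every 1 DPA library for 39 of the 42 (32.2% of all genes). At 3 DPA against 1 DPA, 27 rose and none fell (background 20.4% risen and 24.7% fallen), with a median log2 fold change of 1.14 beside 0.041 for all genes. For 38 genes every 3 DPA library was above every 1 DPA library (30% of all genes). At 5 DPA against 3 DPA, 2 rose, Rgs5 and Adam33, and none fell (background 0.711% risen and 2.46% fallen). The median was 0.76, 20 genes were higher at an unadjusted p under 0.05 (6.55% of all genes), and for 29 the groups did not overlap (12% of all genes). Same-numbered 3 and 5 DPA libraries correlated weakly in their deviations from the group means (0.156 to 0.326), which does not establish that they are paired. With the replicate number as a block neither gene passed, so that 0 of the 42 rose (background 0.572% risen). With no block, the count was 10 without CTRL replicate 3 (background 2.19%), 2 without CTRL replicate 1 (0.847%) and 1 without 1 DPA replicate 3 (0.745%). It was 0 without any one of the other libraries (background 0.0171% to 0.421%). At 3 DPA against 1 DPA, the count was 13 without 1 DPA replicate 1 (background 15.1%). It was 14 without 1 DPA replicate 2 (background 15.9%), 3 DPA replicate 1 (16.5%) or 3 DPA replicate 3 (14.6%). Over the 4 groups, 35 of the 42 genes (83.3%) differed, beside 57.4% of all genes tested. Fn1, Thbs1, Acta2 and Tagln were called in no comparison of 2 groups.

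Against CTRL, fewer of the 42 genes passed. At 1 DPA, 14 fell and none rose (background 22.4% fallen and 29.2% risen), with a median log2 fold change of -0.78 beside -0.049 for all genes. In CPM, 10 of the 42 had every 1 DPA library below every CTRL library, a share near the 23.5% of all genes. None rose at an unadjusted p under 0.05, with DESeq2 or with limma-voom. At 3 DPA, Timp1 rose and none fell (background 10.2% risen and 2.37% fallen), and the median was 0.20. None of the 42 was lower at 3 DPA at an unadjusted p under 0.05, with DESeq2 or with limma-voom. At 5 DPA, 7 rose and none fell (background 5.87% risen and 2.67% fallen): Col4a2, Col5a2, Col15a1, Col18a1, Postn, Pdgfrb and Rgs5. The median there was 0.87 beside 0.014 for all genes. At 5 DPA, 25 of the 42 were higher at an unadjusted p under 0.05 (14.6% of all genes) and none was lower, and 26 had every 5 DPA library above every CTRL library, beside 16.5% of all genes. Without CTRL replicate 3, 37 genes fell at 1 DPA (background 24.8% fallen) and 5 rose at 5 DPA (background 3.47% risen). At 3 DPA, Timp1 rose and Timp3 and Adam33 fell in that fit (background 9.98% risen and 1.78% fallen). The medians were then -1.15 at 1 DPA, -0.060 at 3 DPA and 0.54 at 5 DPA, so that at 3 DPA the median turned its sign. The 14 genes that fell at 1 DPA also fell in that fit, by log2 fold changes between -0.40 for Rgs5 and -2.81 for Tnc, and Timp1 still rose at 3 DPA (log2 fold change 1.78, adjusted p = 0.0487). The 5 that rose at 5 DPA were Rgs5, Postn, Col5a2, Col18a1 and Bgn. The calls of Col15a1 (adjusted p = 0.122), Col4a2 (adjusted p = 0.125) and Pdgfrb (adjusted p = 0.113) at 5 DPA were lost. Of the 14 calls at 1 DPA, 5 held without each library in turn, those of Col4a1, Lama4, Lamc1, Thbs2 and Timp2, and of the 7 at 5 DPA, 2 did, those of Col5a2 and Rgs5. Without 5 DPA replicate 1, the log2 fold change at 5 DPA was 0.38 for Col4a2 (adjusted p = 0.110) and 0.51 for Col15a1 (adjusted p = 0.0854). Against 1 DPA, 12 of the 27 calls at 3 DPA and 34 of the 37 at 5 DPA held without each library, Dcn, Timp3 and Pdgfra being the exceptions at 5 DPA. The 1 DPA count was also moved by over 1.5 times by leaving out CTRL replicate 1 (5 fell, background 19.9%), CTRL replicate 2 (9, background 21.6%), 1 DPA replicate 1 or 2 (7 each, background 17.2% each) or 1 DPA replicate 3 (9, background 20.3%). These 4 counts and that without CTRL replicate 1 are shares of the 42 near or below the background. The 5 DPA count became 14 when CTRL replicate 1 was left out (background 7.51%), 2 when 5 DPA replicate 1 was (background 2.32%) and 4 when 5 DPA replicate 2 was (background 4.37%). It was 3 when CTRL replicate 2, any one library of 1 DPA, or 3 DPA replicate 1 or 3 was left out (background 2.75% to 5.65%). DESeq2 called 23 lower at 1 DPA (background 25%) and 22 higher at 5 DPA (background 8.93%), and limma-voom 9 (background 17.9%) and 12 (background 6.07%). With only the groups compared in the edgeR fit, 0 rose at 5 DPA (background 2.5%), and with no filter on low counts 4 did (background 4.2%). The 3 comparisons with CTRL share the CTRL libraries, and the comparisons of 3 and 5 DPA with 1 DPA share the 1 DPA libraries.

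**Figure D2:**
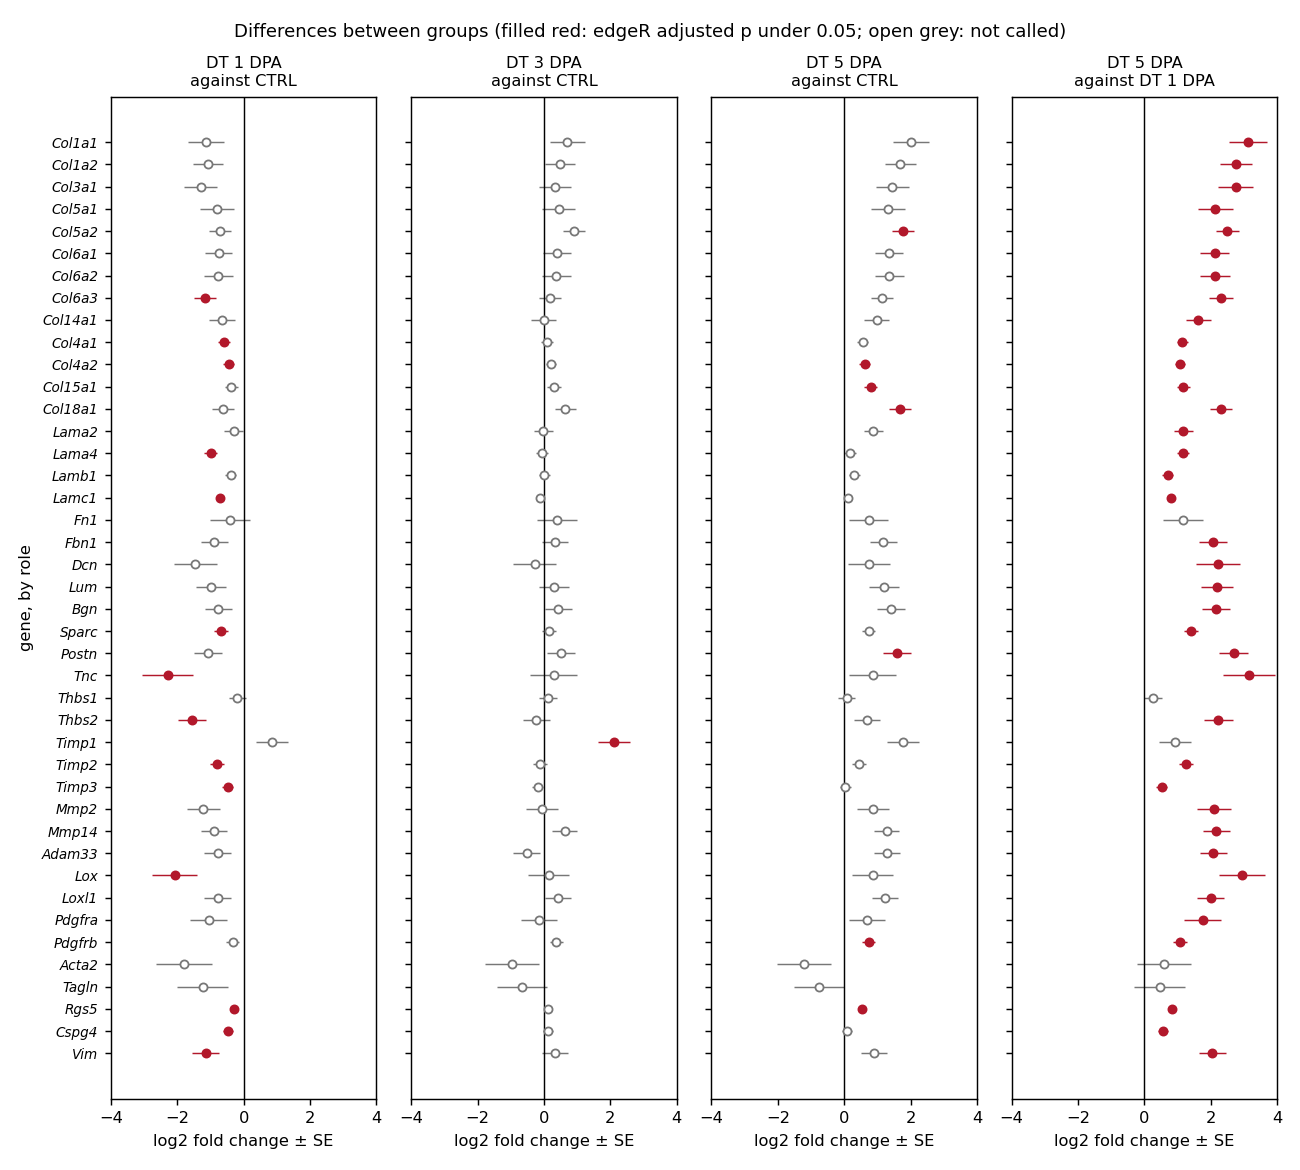
Log2 fold change with its standard error for each of the 42 genes in 4 comparisons, first-named group over second; filled red points were called (adjusted p under 0.05) and open grey points were not. Called genes number 14 (all below 0) at 1 DPA against CTRL, 1 at 3 DPA against CTRL, 7 at 5 DPA against CTRL and 37 (all above 0) at 5 DPA against 1 DPA.

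**Figure D3:**
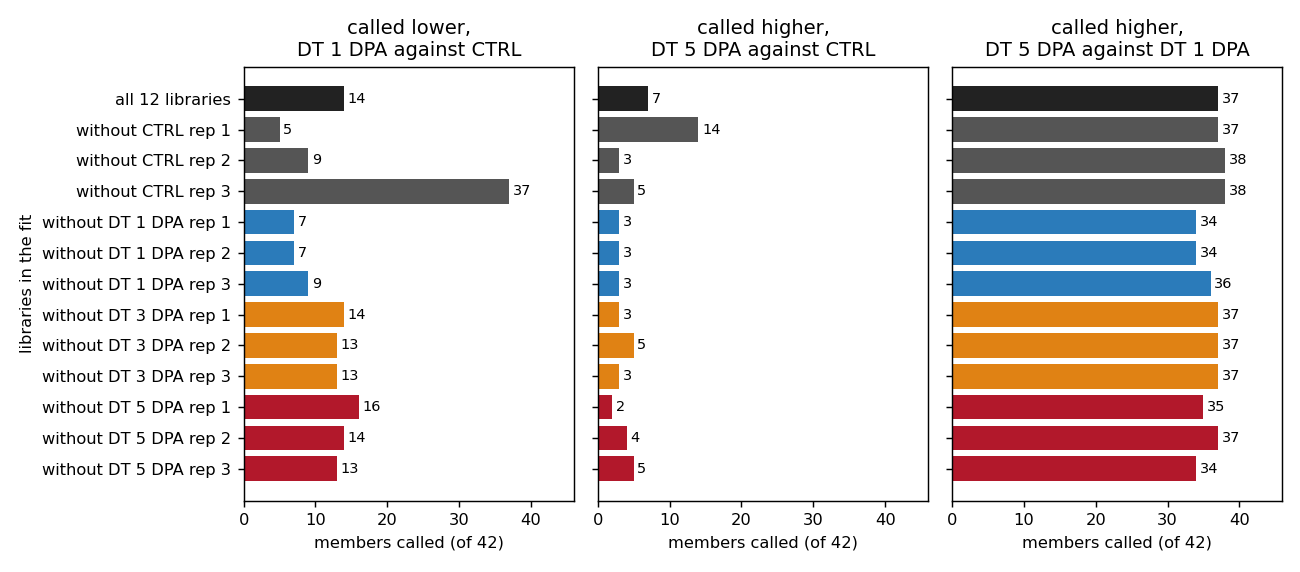
Number of the 42 genes called (horizontal axis) with all 12 libraries and with each library left out in turn (rows), for 3 comparisons. The count for 1 DPA against CTRL runs from 5 to 37 and that for 5 DPA against CTRL from 2 to 14, while that for 5 DPA against 1 DPA stays between 34 and 38.

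The 4 upstream sequences below belong to genes of different roles. Col3a1 is an interstitial collagen and Col15a1 a vascular basement membrane collagen. Rgs5 is the pericyte gene with the smallest p at 5 DPA against 1 DPA. Col3a1, Col15a1 and Rgs5 all rose at 3 and at 5 DPA against 1 DPA. Timp1 was the one gene of the 42 that rose at 3 DPA against CTRL. Each sequence is the 250 bases before the annotated start, 5′ to 3′ on the gene's strand. The sequences are from RefSeq on GRCm38.p6, with motif matches in capitals. All 4 genes are on the plus strand, and no window holds an annotated exon: Col3a1 at chr1:45311288-45311537, Col15a1 at chr4:47207762-47208011, Rgs5 at chr1:169655251-169655500 and Timp1 at chrX:20869916-20870165.
Col3a1: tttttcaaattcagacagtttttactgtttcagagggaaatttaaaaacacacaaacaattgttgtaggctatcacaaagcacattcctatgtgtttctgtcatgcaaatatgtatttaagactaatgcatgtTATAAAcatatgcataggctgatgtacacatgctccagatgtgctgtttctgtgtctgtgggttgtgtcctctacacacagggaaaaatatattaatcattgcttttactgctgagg
Col15a1: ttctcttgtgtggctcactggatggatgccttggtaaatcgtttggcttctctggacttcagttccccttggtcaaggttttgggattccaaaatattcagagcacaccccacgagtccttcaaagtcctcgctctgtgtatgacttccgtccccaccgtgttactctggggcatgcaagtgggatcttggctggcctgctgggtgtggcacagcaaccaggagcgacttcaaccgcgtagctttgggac
Rgs5: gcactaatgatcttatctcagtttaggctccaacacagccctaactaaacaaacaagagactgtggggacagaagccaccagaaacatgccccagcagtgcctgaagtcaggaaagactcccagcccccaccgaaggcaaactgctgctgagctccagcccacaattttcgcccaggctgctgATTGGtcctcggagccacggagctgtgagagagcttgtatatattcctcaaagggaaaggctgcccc
Timp1: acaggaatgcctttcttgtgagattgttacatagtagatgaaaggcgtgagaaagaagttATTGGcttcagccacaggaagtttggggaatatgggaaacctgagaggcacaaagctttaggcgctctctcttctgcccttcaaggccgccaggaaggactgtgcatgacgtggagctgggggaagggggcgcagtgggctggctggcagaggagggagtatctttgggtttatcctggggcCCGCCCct

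The capitals mark TATAAA in Col3a1, the reverse complement of CCAAT in Rgs5 and Timp1, and the reverse complement of GGGCGG in Timp1; Col15a1 has no match to the motifs searched. Windows were found for 27 of the 42 genes (31 windows), and both strands were searched for 5 motifs (named here; none shares letters with another in the 4 sequences shown). TATAAA was present for 5 of the 27 genes and in 12.4% of all 32851 windows of that length, CCAAT for 11 and in 33.8%, and GGGCGG for 14 and in 32.7%. The AP-1 motif (TGACTCA or TGAGTCA) was present for 1 gene, Col6a1, and in 4.46% of windows, and the CArG box of serum response factor for 1, Lama2, and in 1.47%. A gene was counted if any of its windows matched, so the counts of genes and the shares of windows are unlike units. These matches describe letters and show no binding.

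The interstitial collagens form the fibrils and microfibrils of connective tissue. All 9 (Col1a1, Col1a2, Col3a1, Col5a1, Col5a2, Col6a1, Col6a2, Col6a3 and Col14a1) rose at 5 DPA against 1 DPA, with log2 fold changes from 1.63 for Col14a1 to 3.13 for Col1a1, and 6 rose at 3 DPA against 1 DPA. Against CTRL, Col5a2 rose at 5 DPA and Col6a3 fell at 1 DPA; each of the 9 had all 5 DPA libraries above all CTRL libraries, and 8 did not pass.

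Col1a1 had 296, 255 and 63.8 CPM in CTRL, 78.1, 92.7 and 111 CPM at 1 DPA, 441, 214 and 346 CPM at 3 DPA and 1227, 644 and 600.5 CPM at 5 DPA. It encodes the alpha-1 chain of type I collagen, the main collagen of scar. All 3 libraries of 5 DPA stand above the rest, and CTRL replicate 3 is the lowest of the 12. Col1a1 averaged 824 ± 349.8 CPM at 5 DPA and 94.0 ± 16.6 CPM at 1 DPA (SD, n = 3 each). Col1a1 rose (log2 fold change 3.13 ± 0.57, adjusted p = 0.00149; the ± is the standard error here and below). At 5 DPA against CTRL, where it averaged 205 ± 124 CPM, it did not pass (log2 fold change 2.01 ± 0.55, adjusted p = 0.0561), and the spread of CTRL was 4.64-fold between its highest and lowest library. Col3a1 had 651, 454 and 133 CPM in CTRL, 143, 164 and 197 CPM at 1 DPA, 550.1, 373 and 627 CPM at 3 DPA and 1529.7, 913 and 935 CPM at 5 DPA. It encodes type III collagen, which forms mixed fibrils with type I. CTRL overlaps the 1 and 3 DPA libraries, whereas 5 DPA is above every other library. Col3a1 rose at 5 DPA against 1 DPA (log2 fold change 2.74 ± 0.51, adjusted p = 0.00162). Its difference at 1 DPA from CTRL did not pass (log2 fold change -1.30 ± 0.49, adjusted p = 0.0511). With its lowest CTRL library, replicate 3, left out after seeing the data, Col3a1 fell there (log2 fold change -1.72 ± 0.29, adjusted p = 0.00101).

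Col5a2 had 59.2, 50.4 and 25.5 CPM in CTRL, 23.8, 31.8 and 26.8 CPM at 1 DPA, 97.4, 71.4 and 83.2 CPM at 3 DPA and 221, 128 and 113 CPM at 5 DPA. Type V collagen sets the diameter of fibrils. All 3 and 5 DPA libraries exceed all libraries of CTRL and 1 DPA. Col5a2 averaged 154 ± 58.4 CPM at 5 DPA and 45.1 ± 17.5 CPM in CTRL (SD, n = 3 each). Col5a2 rose (log2 fold change 1.77 ± 0.34, adjusted p = 0.0146), while at 3 DPA against CTRL it did not pass (log2 fold change 0.90 ± 0.33, adjusted p = 0.12). Col6a3 had 85.8, 88.0 and 39.8 CPM in CTRL, 28.7, 33.2 and 33.5 CPM at 1 DPA, 84.3, 71.3 and 88.9 CPM at 3 DPA and 234, 120.0 and 117 CPM at 5 DPA. It encodes a chain of type VI collagen, which makes beaded microfibrils around cells. The 1 DPA libraries are below all others. Col6a3 fell at 1 DPA against CTRL (log2 fold change -1.16 ± 0.34, adjusted p = 0.0175), while Col6a1 and Col6a2, the other type VI chains, had log2 fold changes of -0.76 and -0.76 and did not pass. In Col14a1, which encodes a collagen on the surface of fibrils, the lowest 5 DPA library had 95.4 CPM and the highest 3 DPA library 76.8 CPM.

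The basement membrane genes encode type IV collagen, laminin chains and collagens XV and XVIII. All 8 rose at 5 DPA against 1 DPA, with a median log2 fold change of 1.15 beside 2.30 for the interstitial collagens, and values from 0.70 for Lamb1 to 2.30 for Col18a1, and 6 rose at 3 DPA against 1 DPA. At 1 DPA against CTRL 4 fell (Col4a1, Col4a2, Lama4 and Lamc1), and at 5 DPA 3 rose (Col4a2, Col15a1 and Col18a1). Col4a1 had 644, 572 and 452 CPM in CTRL, 395, 370.1 and 342 CPM at 1 DPA, 611, 534 and 635 CPM at 3 DPA and 1055, 716 and 677 CPM at 5 DPA. With Col4a2 it encodes the type IV collagen network. The 1 DPA libraries are the lowest and the 5 DPA libraries the highest, with CTRL and 3 DPA overlapping between them. Col4a1 fell at 1 DPA against CTRL (log2 fold change -0.59 ± 0.17, adjusted p = 0.0128), and at 5 DPA against CTRL it did not pass (log2 fold change 0.55 ± 0.17, adjusted p = 0.0682). Col4a2 had 384, 334 and 298 CPM in CTRL, 255, 249 and 239.6 CPM at 1 DPA, 417, 339.7 and 416 CPM at 3 DPA and 674, 462 and 422 CPM at 5 DPA. The order of the groups in CPM is the same, and 3 DPA overlaps CTRL. In TPM, a deposited unit that divides by transcript length, 1 DPA (85.8 to 104.2) overlaps CTRL (101.6 to 128.7). Col4a2 fell at 1 DPA (log2 fold change -0.45 ± 0.16, adjusted p = 0.0357) and rose at 5 DPA (log2 fold change 0.62 ± 0.16, adjusted p = 0.0394), both against CTRL. Both genes lie head to head on chromosome 8 (mm10), with annotated starts at 11312826 on the minus strand for Col4a1 and 11312805 on the plus strand for Col4a2, so that 22 bases of exon overlap. Whether counting used strand is not given in the sources used here.

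Collagens XV and XVIII sit on the outer face of vascular and epithelial basement membranes, and the end piece of collagen XVIII is endostatin. Col15a1 had 179, 169 and 133 CPM in CTRL, 123, 121 and 129 CPM at 1 DPA, 216, 165 and 212 CPM at 3 DPA and 381, 246 and 212 CPM at 5 DPA, so that 5 DPA replicate 3 lies level with 3 DPA and all 5 DPA libraries exceed CTRL. It averaged 279.5 ± 89.6 CPM at 5 DPA and 160.4 ± 24.5 CPM in CTRL (SD, n = 3 each). Col15a1 rose (log2 fold change 0.80 ± 0.20, adjusted p = 0.0367). Col18a1 had 77.9, 50.7 and 29.4 CPM in CTRL, 32.5, 36.3 and 33.5 CPM at 1 DPA, 85.9, 75.3 and 85.8 CPM at 3 DPA and 235, 141 and 126 CPM at 5 DPA. Every 5 DPA library is above all others, and CTRL replicate 3 is the lowest of the 12. Col18a1 averaged 168 ± 58.9 CPM at 5 DPA and 52.6 ± 24.3 CPM in CTRL (SD, n = 3 each). Col18a1 rose (log2 fold change 1.67 ± 0.33, adjusted p = 0.0174).

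The laminins are the cross-shaped trimers that bind cells to the basement membrane. Lamc1 had 132, 119 and 97.7 CPM in CTRL, 70.6, 73.1 and 70.6 CPM at 1 DPA, 102, 101 and 118 CPM at 3 DPA and 144, 110.0 and 120.5 CPM at 5 DPA. It encodes the gamma-1 chain shared by most laminins. The 1 DPA libraries are below all others, and the 3 and 5 DPA libraries overlap CTRL. Lamc1 averaged 71.5 ± 1.45 CPM at 1 DPA and 116 ± 17.3 CPM in CTRL (SD, n = 3 each). Lamc1 fell (log2 fold change -0.70 ± 0.12, adjusted p = 0.000392). That p was the smallest of the 42 in that comparison, and the gene rose at 3 DPA against 1 DPA (log2 fold change 0.58 ± 0.12, adjusted p = 0.00196). Lama4 had 47.8, 40.9 and 28.3 CPM in CTRL, 20.5, 21.6 and 16.9 CPM at 1 DPA, 33.4, 34.7 and 44.1 CPM at 3 DPA and 48.7, 37.1 and 45.6 CPM at 5 DPA. Its alpha-4 chain is found in vessel walls. As in Lamc1, the 1 DPA libraries are apart from CTRL and those of 3 and 5 DPA overlap it. Lama4 averaged 19.6 ± 2.44 CPM at 1 DPA and 39.0 ± 9.92 CPM in CTRL (SD, n = 3 each). Lama4 fell (log2 fold change -0.99 ± 0.19, adjusted p = 0.00132). Lamc1 and Lama4 at 5 DPA differed from CTRL by log2 fold changes of 0.10 (adjusted p = 0.64) and 0.17 (adjusted p = 0.633). Lama2, the alpha-2 chain of muscle and nerve basement membranes, and Lamb1 rose at 5 DPA against 1 DPA and passed in no other comparison.

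**Figure D4:**
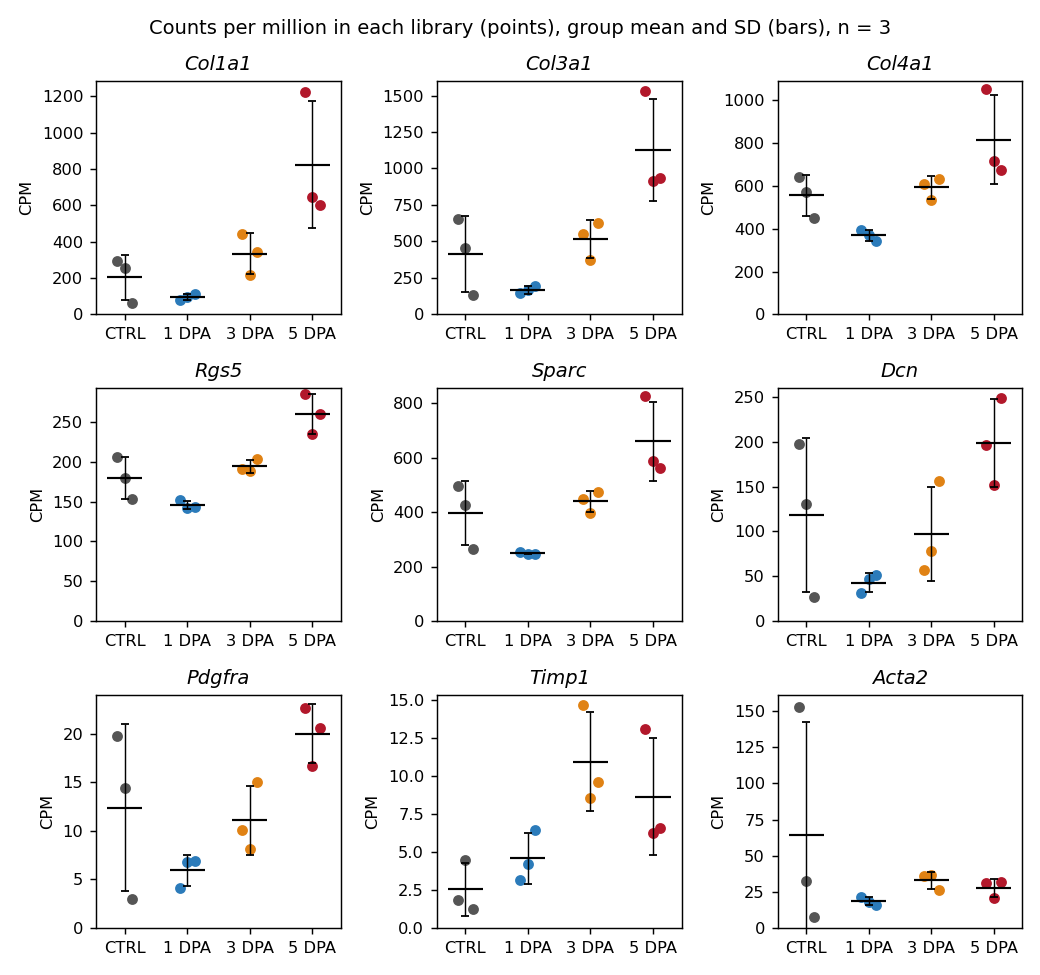
CPM of 9 of the genes in each library (points, axis from 0) with the group mean (long bar) and SD (error bar, n = 3) for CTRL and 1, 3 and 5 DPA. Col1a1, Col3a1, Col4a1, Rgs5 and Sparc are highest in the 3 libraries of 5 DPA, Timp1 is highest on average at 3 DPA, and Acta2 in CTRL spans 7.61 to 153 CPM.

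Fibronectin and fibrillin differed in what passed. Fn1 had 91.1, 52.9 and 15.03 CPM in CTRL, 25.8, 40.4 and 53.4 CPM at 1 DPA, 100.05, 50.1 and 58.7 CPM at 3 DPA and 126, 60.4 and 77.9 CPM at 5 DPA. Fibronectin is an adhesive glycoprotein laid down early in wounds. All groups overlap CTRL, and replicates within CTRL differ 6.06-fold. Fn1 passed in no comparison. At 5 DPA against 1 DPA it averaged 88.1 ± 33.9 CPM at 5 DPA and 39.9 ± 13.8 CPM at 1 DPA (SD, n = 3 each) (log2 fold change 1.15 ± 0.60, adjusted p = 0.136). Fbn1, the fibrillin of elastic microfibrils, rose at 3 DPA (log2 fold change 1.23 ± 0.41, adjusted p = 0.0347) and 5 DPA (log2 fold change 2.07 ± 0.41, adjusted p = 0.00229) against 1 DPA. Of the small proteoglycans that coat collagen fibrils, Dcn, Lum and Bgn all rose at 5 DPA against 1 DPA, Lum and Bgn also at 3 DPA, and none passed against CTRL. Dcn had 197, 131 and 26.4 CPM in CTRL, 31.0, 46.5 and 51.5 CPM at 1 DPA, 56.6, 78.4 and 157 CPM at 3 DPA and 196, 151 and 249 CPM at 5 DPA. Decorin also binds TGF-beta. CTRL runs from below the lowest 1 DPA library to the level of 5 DPA replicate 1, and the 5 DPA libraries are above all of 1 DPA. Dcn averaged 199 ± 48.8 CPM at 5 DPA and 43.0 ± 10.7 CPM at 1 DPA (SD, n = 3 each). Dcn rose (log2 fold change 2.21 ± 0.67, adjusted p = 0.0199). At 1 DPA against CTRL it did not pass (log2 fold change -1.46 ± 0.65, adjusted p = 0.0911). With its lowest CTRL library, replicate 3, left out after seeing the data, Dcn fell there (log2 fold change -1.93 ± 0.44, adjusted p = 0.00685).

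Matricellular proteins sit in the matrix but act mainly on cells. Of 5 such genes, Sparc, Tnc and Thbs2 fell at 1 DPA against CTRL, Postn rose at 5 DPA against CTRL, and these 4 rose at 3 and at 5 DPA against 1 DPA. Sparc had 497, 428 and 265 CPM in CTRL, 252, 246 and 248 CPM at 1 DPA, 448, 397 and 474 CPM at 3 DPA and 826, 588 and 563 CPM at 5 DPA. Osteonectin, its product, binds collagen and is made by many mesenchymal and endothelial cells. The 1 DPA libraries, at 246 to 252 CPM, are below all others in that unit, and 5 DPA is above all others. In TPM, 1 DPA (166.7 to 211.7) overlaps CTRL (177.5 to 327.4). Sparc fell at 1 DPA against CTRL (log2 fold change -0.67 ± 0.21, adjusted p = 0.0198) and rose at 5 DPA against 1 DPA (log2 fold change 1.41 ± 0.21, adjusted p = 0.00026). Postn had 77.5, 75.3 and 22.1 CPM in CTRL, 24.0, 29.5 and 28.9 CPM at 1 DPA, 85.0, 75.5 and 89.5 CPM at 3 DPA and 244, 130.4 and 155 CPM at 5 DPA. Periostin is made by activated fibroblasts and helps crosslink collagen. The 5 DPA libraries exceed all others, and CTRL replicate 3 falls below every 1 DPA library. Postn averaged 176 ± 59.8 CPM at 5 DPA and 58.3 ± 31.4 CPM in CTRL (SD, n = 3 each). Postn rose (log2 fold change 1.60 ± 0.42, adjusted p = 0.0472). The call was lost in 10 of the 12 fits that leave out a library, all but those without CTRL replicate 1 or 3, with an adjusted p of up to 0.169. Thbs2 had 15.7, 18.5 and 5.92 CPM in CTRL, 3.19, 4.46 and 6.12 CPM at 1 DPA, 13.3, 7.44 and 13.4 CPM at 3 DPA and 22.1, 16.5 and 25.9 CPM at 5 DPA. Thrombospondin-2 limits vessel growth. CTRL replicate 3 overlaps 1 DPA, and the 5 DPA libraries overlap CTRL. Thbs2 averaged 4.59 ± 1.47 CPM at 1 DPA and 13.4 ± 6.59 CPM in CTRL (SD, n = 3 each). Thbs2 fell (log2 fold change -1.54 ± 0.42, adjusted p = 0.0116). Tnc, a protein of healing tissue, fell furthest of the 42 at 1 DPA against CTRL (log2 fold change -2.29 ± 0.77, adjusted p = 0.0335), with 5.42, 6.15 and 7.04 CPM at 1 DPA and 33.2, 53.8 and 3.81 CPM in CTRL, with CTRL replicate 3 below 1 DPA. That call was lost without CTRL replicate 1, CTRL replicate 2 or any one of the 1 DPA libraries, and without CTRL replicate 2 the log2 fold change was -1.64 (adjusted p = 0.103). Thbs1 passed in no comparison, and its log2 fold changes ran from -0.19 at 1 DPA against CTRL to 0.32 at 3 DPA against 1 DPA.

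Among the proteases and their inhibitors, Timp1 was highest at 3 DPA and lowest in CTRL. Timp1 had 1.84, 4.49 and 1.26 CPM in CTRL, 3.14, 4.17 and 6.44 CPM at 1 DPA, 14.6, 8.57 and 9.56 CPM at 3 DPA and 13.1, 6.25 and 6.54 CPM at 5 DPA. It encodes the inducible tissue inhibitor of metalloproteinases. All 3 and 5 DPA libraries are above all CTRL libraries, and 1 DPA overlaps both CTRL and 5 DPA. Timp1 averaged 10.9 ± 3.26 CPM at 3 DPA and 2.53 ± 1.72 CPM in CTRL (SD, n = 3 each). Timp1 rose (log2 fold change 2.11 ± 0.49, adjusted p = 0.0171); at 5 DPA against CTRL it did not pass (log2 fold change 1.77 ± 0.49, adjusted p = 0.0514). Its call at 3 DPA was lost without CTRL replicate 1 (adjusted p = 0.0617) or without 3 DPA replicate 1 (adjusted p = 0.0755). Timp2 had 165, 139.6 and 85.7 CPM in CTRL, 64.7, 78.7 and 79.1 CPM at 1 DPA, 113, 110.0 and 136 CPM at 3 DPA and 198, 151 and 179 CPM at 5 DPA. Its product both inhibits and, with MMP14, helps activate MMP2. The 1 DPA libraries are below all others in CPM. In TPM, 1 DPA (37.0 to 58.5) overlaps CTRL (49.6 to 93.8). Timp2 averaged 74.2 ± 8.20 CPM at 1 DPA and 130.01 ± 40.4 CPM in CTRL (SD, n = 3 each). Timp2 fell (log2 fold change -0.81 ± 0.21, adjusted p = 0.00843), as did Timp3, the matrix-bound inhibitor (log2 fold change -0.48 ± 0.17, adjusted p = 0.0352). For Timp3, CTRL replicate 3 (102 CPM) was below every 1 DPA library (105 to 108 CPM). Its call was lost without CTRL replicate 1, CTRL replicate 2 or any one 1 DPA library, with an adjusted p of up to 0.0950. Timp2 and Timp3 rose at 5 DPA against 1 DPA, and Timp2 also at 3 DPA. Timp3 shares 1733 bases of exon with Syn3 on the opposite strand, and Syn3 had 1.889% as many counts.

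Mmp14, the membrane metalloproteinase that activates MMP2, rose at 3 DPA (log2 fold change 1.52 ± 0.39, adjusted p = 0.0107) and 5 DPA (log2 fold change 2.17 ± 0.39, adjusted p = 0.00129) against 1 DPA, and Mmp2, a gelatinase, rose at 5 DPA (log2 fold change 2.09 ± 0.51, adjusted p = 0.00641). Adam33 had 3.40, 2.23 and 0.776 CPM in CTRL, 1.35, 1.21 and 1.14 CPM at 1 DPA, 1.33, 1.44 and 1.67 CPM at 3 DPA and 6.02, 5.53 and 3.97 CPM at 5 DPA. This membrane protease is made by mesenchymal cells. The 5 DPA libraries stand above all others, and the other groups overlap, at low levels. Adam33 averaged 5.18 ± 1.07 CPM at 5 DPA and 1.48 ± 0.174 CPM at 3 DPA (SD, n = 3 each). Adam33 rose (log2 fold change 1.80 ± 0.40, adjusted p = 0.0347), a call lost with the replicate block. The Adam33 call was also lost in 9 of the 12 fits that leave out a library, with an adjusted p of up to 0.165. The crosslinking enzymes Lox and Loxl1, which oxidise lysines of collagen and elastin, both rose at 3 and 5 DPA against 1 DPA. Lox had 1.38, 2.03 and 2.76 CPM at 1 DPA and 13.4, 10.7 and 1.95 CPM in CTRL, where replicate 3 is level with 1 DPA. Lox fell at 1 DPA against CTRL (log2 fold change -2.08 ± 0.68, adjusted p = 0.028).

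Receptors and markers of the mesenchymal cells themselves did not all move alike. Pdgfrb had 65.9, 60.9 and 40.3 CPM in CTRL, 43.3, 40.4 and 49.3 CPM at 1 DPA, 76.7, 64.3 and 75.3 CPM at 3 DPA and 119.8, 82.1 and 76.8 CPM at 5 DPA. It encodes the receptor through which PDGF-BB recruits pericytes. The 5 DPA libraries are above all others, the lowest only just, at 76.75 CPM beside 76.71 CPM in 3 DPA replicate 1. The 1 DPA libraries overlap CTRL through CTRL replicate 3. Pdgfrb averaged 92.9 ± 23.5 CPM at 5 DPA and 55.7 ± 13.6 CPM in CTRL (SD, n = 3 each). Pdgfrb rose (log2 fold change 0.74 ± 0.20, adjusted p = 0.0487). That call was lost in 11 of the 12 fits that leave out a library, with an adjusted p of up to 0.169. Only the fit without CTRL replicate 1 kept it. Rgs5 had 206, 179.7 and 153 CPM in CTRL, 152, 143 and 143 CPM at 1 DPA, 191, 188 and 204 CPM at 3 DPA and 286, 234 and 259.8 CPM at 5 DPA. It encodes a regulator of G protein signalling enriched in pericytes. In CPM the groups follow in the order 1 DPA, CTRL with 3 DPA overlapping it, then 5 DPA. In TPM, 1 DPA (74.5 to 90.4) overlaps CTRL (76.0 to 100.6). Rgs5 fell at 1 DPA (log2 fold change -0.30 ± 0.10, adjusted p = 0.0255) and rose at 5 DPA (log2 fold change 0.53 ± 0.10, adjusted p = 0.00979) against CTRL. It also rose at 5 DPA against 3 DPA (log2 fold change 0.42 ± 0.10, adjusted p = 0.0447), the last lost with the replicate block. That last call was also lost in 10 of the 12 fits that leave out a library, with an adjusted p of up to 0.195. Cspg4, the pericyte proteoglycan NG2, fell at 1 DPA against CTRL (log2 fold change -0.47 ± 0.15, adjusted p = 0.0198) and rose at 3 and 5 DPA against 1 DPA.

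Pdgfra had 19.8, 14.4 and 2.99 CPM in CTRL, 4.10, 6.83 and 6.91 CPM at 1 DPA, 10.1, 8.15 and 15.1 CPM at 3 DPA and 22.7, 16.7 and 20.6 CPM at 5 DPA. This PDGF receptor marks fibroblasts. CTRL replicate 3 is the lowest library of the 12, and CTRL replicate 1 lies within the range of 5 DPA. Pdgfra averaged 19.999 ± 3.05 CPM at 5 DPA and 5.95 ± 1.60 CPM at 1 DPA (SD, n = 3 each). Pdgfra rose (log2 fold change 1.75 ± 0.56, adjusted p = 0.0235), and it did not pass at 1 DPA against CTRL (log2 fold change -1.06 ± 0.55, adjusted p = 0.136). Acta2 had 153, 32.5 and 7.61 CPM in CTRL, 21.4, 18.1 and 16.2 CPM at 1 DPA, 35.8, 36.9 and 26.3 CPM at 3 DPA and 30.8, 20.8 and 32.0 CPM at 5 DPA. Smooth muscle actin marks arteriole wall cells and activated stellate cells. CTRL replicate 1 is above all other libraries and CTRL replicate 3 is below all of them. Acta2 averaged 27.8 ± 6.14 CPM at 5 DPA and 64.4 ± 77.8 CPM in CTRL (SD, n = 3 each) and did not pass (log2 fold change -1.21 ± 0.81, adjusted p = 0.411); without CTRL replicate 1 the log2 fold change was 0.46. Tagln, another smooth muscle gene, had 26.7, 21.2 and 26.3 CPM at 5 DPA and 97.8, 23.6 and 5.63 CPM in CTRL, and it passed in no comparison. Tagln shares 108 bases of exon with Pcsk7 on the opposite strand, which had 106.4% as many counts. Vim, the intermediate filament of mesenchymal cells and macrophages, fell at 1 DPA against CTRL (log2 fold change -1.14 ± 0.40, adjusted p = 0.0385) and rose at 3 and 5 DPA against 1 DPA. Its call at 1 DPA was lost in 8 of the 12 fits that leave out a library, and without CTRL replicate 1 the log2 fold change was -0.69 (adjusted p = 0.135).

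The genes differed in how far replicates of one group lay apart. In CTRL the highest library over the lowest had a median ratio of 3.19 over the 42 genes, and in the toxin groups the median was 1.28 at 1 DPA, 1.38 at 3 DPA and 1.59 at 5 DPA. In CTRL the ratio was 20.1 for Acta2, 17.4 for Tagln and 14.1 for Tnc. It was 1.29 for Col4a2, 1.35 for Rgs5 and 1.35 for Lamc1. Role did not set the ratio: Col18a1, a basement membrane gene like Col4a2 and Lamc1, was at 2.65. Acta2 and Tagln are in the same role group as Rgs5, the mesenchymal receptors and markers. The ratio over all genes is not reported here. The standard error of the log2 fold change at 5 DPA against CTRL was 0.64 for Dcn and 0.10 for Rgs5.

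**Figure D5:**
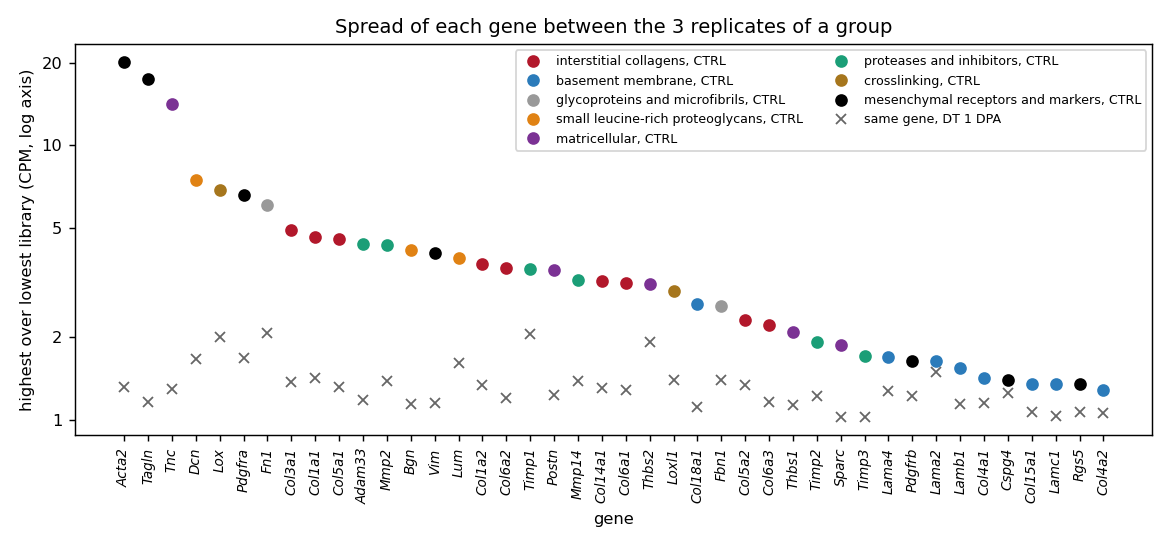
Ratio of the highest to the lowest library of a group in CPM (log axis) for each gene, in CTRL (circles, coloured by role) and at 1 DPA (crosses), with genes ordered by the CTRL ratio. The CTRL ratio runs from 1.29 for Col4a2 to 20.1 for Acta2, and at 1 DPA it runs from 1.02 to 2.07.

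Levels of different genes were compared in TPM, a deposited unit that divides by transcript length. Sparc had the highest mean TPM of the 42 in every group, at 254 TPM in CTRL, 187 TPM at 1 DPA, 304 TPM at 3 DPA and 465 TPM at 5 DPA. Col1a1 averaged 66.9 TPM in CTRL, 36.9 TPM at 1 DPA, 119 TPM at 3 DPA and 300.2 TPM at 5 DPA, at rank 11 in CTRL, rank 11 at 1 DPA, rank 7 at 3 DPA and rank 2 at 5 DPA. The sum of the type I chains over the sum of the type IV chains, a level ratio in TPM, was 0.460, 0.462 and 0.148 in CTRL, 0.202, 0.246 and 0.314 at 1 DPA, 0.647, 0.388 and 0.519 at 3 DPA and 1.05, 0.836 and 0.851 at 5 DPA. The 5 DPA libraries are above all others, and 5 DPA replicate 1 has the highest ratio. This ratio of interstitial to basement membrane collagen spanned a wider range than the ratio within type IV collagen: Col4a1 over Col4a2 was 1.60, 1.63 and 1.45 in CTRL, 1.48, 1.42 and 1.36 at 1 DPA, 1.40, 1.499 and 1.45 at 3 DPA and 1.49, 1.48 and 1.53 at 5 DPA. No test was made of these ratios, since the genes were chosen with earlier results known.

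Genes that process and read the matrix, listed by pathway, are given as mean CPM ± SD (n = 3 each) with the log2 fold change ± its standard error. Their counts stand beside all genes tested, of which 22.4% fell and 29.2% rose at 1 DPA against CTRL, 2.37% fell and 10.2% rose at 3 DPA, 2.67% fell and 5.87% rose at 5 DPA, and 29.8% fell and 26.3% rose at 5 DPA against 1 DPA. Of 25 genes for processing collagen, 16 fell and 1 rose at 1 DPA against CTRL, 2 fell at 3 DPA and 0 passed at 5 DPA, and 20 rose at 5 DPA against 1 DPA; at 5 DPA against CTRL the median log2 fold change was 0.16. P4hb, the beta subunit of collagen prolyl 4-hydroxylase and a disulfide isomerase, had 529 ± 77.0 CPM at 1 DPA and 965 ± 47.0 CPM in CTRL (log2 fold change -0.87 ± 0.094, adjusted p = 1.39e-05). P3h1, a collagen prolyl 3-hydroxylase, had 27.7 ± 3.52 CPM at 1 DPA and 48.9 ± 0.490 CPM in CTRL (log2 fold change -0.82 ± 0.089, adjusted p = 1.34e-05). P4ha3, an alpha subunit of prolyl 4-hydroxylase, went the other way at low level, with 0.610 ± 0.308 CPM at 1 DPA and 0.139 ± 0.0630 CPM in CTRL (log2 fold change 2.12 ± 0.54, adjusted p = 0.0063). At 3 DPA the secretory factor Mia3 and the procollagen protease Bmp1 fell, by log2 fold changes of -0.29 (adjusted p = 0.0499) and -0.27 (adjusted p = 0.0233).

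Of 24 further matrix proteases and inhibitors tested, of 26 listed, 11 fell and 1 rose at 1 DPA against CTRL, 6 rose at 3 DPA and 6 at 5 DPA, and 20 rose at 5 DPA against 1 DPA. Mmp12, the macrophage elastase, had 11.3 ± 7.42 CPM at 5 DPA and 2.07 ± 1.05 CPM in CTRL (log2 fold change 2.46 ± 0.51, adjusted p = 0.0181). Mmp13, a collagenase, rose in each of the 3 comparisons with CTRL from a very low level, with 0.700 ± 0.295 CPM at 5 DPA and 0.138 ± 0.0427 CPM in CTRL (log2 fold change 2.34 ± 0.45, adjusted p = 0.0112); its adjusted p was 0.0165 at 1 DPA and 0.00723 at 3 DPA. The sheddases Adam10 and Adam17 fell at 1 DPA, Adam10 with 47.3 ± 1.34 CPM at 1 DPA and 71.7 ± 6.81 CPM in CTRL (log2 fold change -0.60 ± 0.072, adjusted p = 2.87e-05) and Adam17 with a log2 fold change of -0.69 (adjusted p = 3.48e-05).

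TGF-beta is a main inducer of matrix genes, and PDGF recruits pericytes. Of 21 genes of TGF-beta and CCN signalling matched, of 22 listed, 7 fell and 3 rose at 1 DPA against CTRL, 3 rose at 3 DPA and 2 rose at 5 DPA, and 11 rose and 3 fell at 5 DPA against 1 DPA. The share that rose at 1 DPA was below that of all genes, and the shares at 3 and 5 DPA were near it. Skil, a repressor of SMADs that TGF-beta induces, had 135 ± 5.29 CPM at 1 DPA and 41.1 ± 3.98 CPM in CTRL (log2 fold change 1.72 ± 0.10, adjusted p = 1.49e-07). It also rose at 3 DPA (log2 fold change 0.59, adjusted p = 0.00122) and 5 DPA (log2 fold change 0.50, adjusted p = 0.00936). Smad7, the inhibitory SMAD, had 42.4 ± 8.19 CPM at 1 DPA and 21.4 ± 0.900 CPM in CTRL (log2 fold change 0.99 ± 0.12, adjusted p = 3.99e-05), and rose at 3 DPA as well (adjusted p = 0.0269). Tgfb1, a ligand, had 11.73 ± 0.699 CPM at 1 DPA and 26.0 ± 7.12 CPM in CTRL (log2 fold change -1.15 ± 0.22, adjusted p = 0.00123). The receptor Tgfbr1 fell with it (log2 fold change -0.26, adjusted p = 0.00344). Wisp1, a CCN family protein, had 6.68 ± 2.56 CPM at 5 DPA and 2.79 ± 0.627 CPM in CTRL (log2 fold change 1.26 ± 0.30, adjusted p = 0.0254). Of the 4 PDGF ligands, 3 fell at 1 DPA against CTRL, 0 passed at 3 or 5 DPA, and 3 rose at 5 DPA against 1 DPA; median log2 fold changes against CTRL were 0.052 at 3 DPA and 0.27 at 5 DPA. Pdgfb, the ligand of PDGFRB that vessels secrete, had 26.3 ± 2.19 CPM at 1 DPA and 35.2 ± 5.57 CPM in CTRL (log2 fold change -0.42 ± 0.11, adjusted p = 0.00889). Pdgfd fell too (log2 fold change -0.67, adjusted p = 0.000547).

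Of 26 matrix receptors, 13 fell and 4 rose at 1 DPA against CTRL, 1 rose at 3 DPA, 2 rose and 1 fell at 5 DPA, and 15 rose and 3 fell at 5 DPA against 1 DPA. The shares that rose at 1 and 3 DPA were below those of all genes, and the share at 5 DPA was near it. Itga10, an integrin chain of collagen receptors, had 16.8 ± 1.98 CPM at 1 DPA and 4.02 ± 0.572 CPM in CTRL (log2 fold change 2.07 ± 0.15, adjusted p = 8.33e-07). Itga2, another collagen-binding integrin chain, rose with it (adjusted p = 0.00113). Dag1, the dystroglycan that binds laminin, had 119.6 ± 2.10 CPM at 1 DPA and 177 ± 11.98 CPM in CTRL (log2 fold change -0.57 ± 0.067, adjusted p = 2.78e-05). Itga3, a laminin-binding integrin chain, fell at 1 DPA (adjusted p = 0.000125) and at 5 DPA (log2 fold change -0.23, adjusted p = 0.0474). Sdc4, a syndecan, had 61.7 ± 13.2 CPM at 3 DPA and 34.4 ± 3.23 CPM in CTRL (log2 fold change 0.84 ± 0.15, adjusted p = 0.0024). Itga7, a laminin-binding integrin chain of muscle, had 29.9 ± 8.65 CPM at 5 DPA and 14.3 ± 4.48 CPM in CTRL (log2 fold change 1.06 ± 0.23, adjusted p = 0.0201). Itgb5 rose at 5 DPA as well (adjusted p = 0.0199).

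Of 21 other basement membrane genes, 12 fell and 1 rose at 1 DPA against CTRL, 1 fell at 3 DPA, 2 rose at 5 DPA, and 15 rose and 1 fell at 5 DPA against 1 DPA. At 1 DPA the nidogen gene Nid2 fell (log2 fold change -0.64), and Lama1 rose from a low level, with 2.96 ± 2.11 CPM at 1 DPA and 0.478 ± 0.185 CPM in CTRL (log2 fold change 2.62 ± 0.51, adjusted p = 0.00112). Npnt fell at 3 DPA (adjusted p = 0.0177). Agrn, the basement membrane proteoglycan agrin, had 159 ± 21.1 CPM at 5 DPA and 114 ± 20.6 CPM in CTRL (log2 fold change 0.48 ± 0.13, adjusted p = 0.0459). Lamc3 rose at 5 DPA too (adjusted p = 0.0237). Of 16 other pericyte and smooth muscle genes matched, of 18 listed, 4 fell at 1 DPA against CTRL, 0 passed at 3 DPA, 2 rose at 5 DPA and 7 rose at 5 DPA against 1 DPA; the median at 3 DPA against CTRL was -0.26. The share that fell at 1 DPA was near that of all genes. Mcam, a pericyte and endothelial adhesion molecule, had 34.1 ± 2.17 CPM at 1 DPA and 56.2 ± 9.47 CPM in CTRL (log2 fold change -0.72 ± 0.14, adjusted p = 0.00101). Cald1, caldesmon, fell too (adjusted p = 0.0195). Heyl, a Notch target of mural cells, had 40.6 ± 14.5 CPM at 5 DPA and 23.7 ± 3.29 CPM in CTRL (log2 fold change 0.78 ± 0.20, adjusted p = 0.0401). Ndufa4l2, enriched in pericytes, rose with it (adjusted p = 0.0327). Of 19 other fibroblast and stellate cell genes tested, of 20 listed, 6 fell at 1 DPA against CTRL, 1 rose at 3 DPA, 3 rose at 5 DPA and 17 rose at 5 DPA against 1 DPA. Ngfr, the low-affinity neurotrophin receptor of stellate and Schwann cells, had 51.3 ± 16.7 CPM at 5 DPA and 13.1 ± 1.54 CPM in CTRL (log2 fold change 1.97 ± 0.22, adjusted p = 0.000911), and it was the gene that rose at 3 DPA (adjusted p = 0.00237). Thy1, a surface protein of fibroblasts, had 45.1 ± 11.1 CPM at 5 DPA and 23.4 ± 3.29 CPM in CTRL (log2 fold change 0.95 ± 0.17, adjusted p = 0.00832) and fell at 1 DPA (adjusted p = 0.0184), as did the secreted protein gene Spon2 (adjusted p = 0.000506). Fbln1 and Col8a1 are on both the basement membrane and the fibroblast list.

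Markers of some other cell types, macrophages and endothelium among them, moved with the matrix genes, and their part in these results was not tested. Of all genes tested, 22.4% fell at 1 DPA, 10.2% rose and 2.37% fell at 3 DPA, and 5.87% rose and 2.67% fell at 5 DPA, against CTRL. At 5 DPA against 1 DPA, 26.3% rose and 29.8% fell. The 14 macrophage markers were all detected in every group, and their summed level was 153 to 629 CPM in CTRL, 116 to 139.5 CPM at 1 DPA, 250.3 to 427 CPM at 3 DPA and 682 to 943 CPM at 5 DPA. Of these 14, 10 fell at 1 DPA against CTRL, 2 rose at 5 DPA against CTRL and 13 rose at 5 DPA against 1 DPA, and CTRL replicate 3, at 153 CPM, was the lowest CTRL library here too. The 12 endothelial markers summed to 1022 to 1267 CPM in CTRL, 845 to 904 CPM at 1 DPA, 1082 to 1157 CPM at 3 DPA and 1202 to 1366 CPM at 5 DPA. Of these, 7 fell at 1 DPA against CTRL, 0 passed at 5 DPA and 11 rose at 5 DPA against 1 DPA. The 8 Schwann cell markers, Ngfr among them, summed to 73.8 to 96.8 CPM in CTRL, 76.2 to 89.1 CPM at 1 DPA, 108 to 128 CPM at 3 DPA and 140.2 to 207 CPM at 5 DPA. Of these, 1 fell at 1 DPA, a share below that of all genes, and 5 rose at 5 DPA, both against CTRL. The 15 acinar markers summed to 12006 to 74971 CPM in CTRL, 5887 to 58564 CPM at 1 DPA, 5124 to 15207 CPM at 3 DPA and 8784 to 32675 CPM at 5 DPA. None passed in any comparison, and their median log2 fold changes against CTRL were -0.48 at 1 DPA, -2.12 at 3 DPA and -1.17 at 5 DPA. Duct markers, 10 in number, summed to 463 to 486 CPM in CTRL, 362 to 424 CPM at 1 DPA, 491 to 550.2 CPM at 3 DPA and 461 to 537 CPM at 5 DPA. There were 4 lower at 1 DPA against CTRL, 0 at 3 or 5 DPA and 5 higher at 5 DPA against 1 DPA. The 7 mesothelial markers, 5 of them tested, summed to 37.5 to 64.5 CPM in CTRL, 50.1 to 102 CPM at 1 DPA, 52.3 to 65.3 CPM at 3 DPA and 33.1 to 43.8 CPM at 5 DPA, and Muc16 was listed at 0 in all 3 libraries of 1 DPA. The mesothelial sum was lower in every 5 DPA library than in any 1 DPA library. Of the 5 markers tested, 1 fell and 0 rose at 5 DPA against 1 DPA, shares below those of all genes. The median log2 fold change of these 5 markers was 0.31, so the sum does not describe the typical marker. Of the 10 endocrine markers, 4 fell at 1 DPA, 1 rose and 1 fell at 3 DPA and 2 fell at 5 DPA, all against CTRL. At 5 DPA against 1 DPA, 4 rose and 1 fell. The endocrine share that rose at 3 DPA was near that of all genes. The share that fell at 5 DPA against 1 DPA was below it.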

How the data were processed

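Islet RNA of 12 libraries was sequenced, extracted with RNeasy columns and made into libraries with a QIAseq stranded mRNA kit, per the labels' protocols. The authors deposited raw read counts per gene and TPM values, per the file headers. Per the submitters' processing notes, reads were placed on mm10. Which aligner and counter were run, and with what strand setting, is not given in the sources used here. A further 24 columns of per-sample values belong to no listed library and were not used.

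The 42 genes and all lists were chosen with earlier results of these data known. Counts were filtered with filterByExpr (minimum 10), scaled by TMM and fitted over the 4 groups with edgeR 4.0.16 (robust quasi-likelihood test) in R 4.3.3, with p-values adjusted over all 17294 genes by Benjamini-Hochberg and called under 0.05; the scripts were tested on simulated data. CPM values were computed from the counts with those scaled library sizes. limma 3.58.1 (voom) and DESeq2 1.42.0 were alternatives, with other scaling and filters, only the groups compared, a replicate block and each library left out. Genes described with values in each library were those with the smallest adjusted p among the called genes of a comparison, and a fixed set of role representatives; of each related list, up to 2 called genes of smallest p in each direction were named per comparison with CTRL, and some that the rule gives are not reported here. Coordinates are GENCODE M21 (GRCm38). Replicates of each group differed by more than sampling noise. Replicate numbers were checked by correlating deviations from group means between same-numbered libraries. For 5 and 3 DPA the values were 0.156 to 0.326, all over the cut-off of 0.1. For 5 DPA and CTRL they were -0.465 to -0.108. Libraries of unlike number were not compared, so pairing is not established, and the labels do not give it.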

Additional observations from a re-analysis of the deposited data

Results flagged for a closer look

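For 37 of the 42 genes the difference from CTRL itself differed between times, by a direct test of one time against another (edgeR, Benjamini-Hochberg adjusted over all genes). All values below are log2 fold changes at 5 DPA against 1 DPA, unless another pair is named.
Among the interstitial collagens the value was 3.13 for Col1a1, 2.76 for Col1a2, 2.74 for Col3a1, 2.13 for Col5a1, 2.49 for Col5a2, 2.11 for Col6a1, 2.13 for Col6a2, 2.30 for Col6a3 and 1.63 for Col14a1.
Among basement membrane genes it was 1.15 for Col4a1, 1.07 for Col4a2, 1.17 for Col15a1, 2.30 for Col18a1, 1.17 for Lama2, 1.16 for Lama4, 0.70 for Lamb1 and 0.80 for Lamc1.
For the microfibril gene Fbn1 it was 2.07, and for the proteoglycans it was 2.21 for Dcn, 2.19 for Lum and 2.16 for Bgn.
Among matricellular genes it was 1.41 for Sparc, 2.68 for Postn, 3.15 for Tnc and 2.23 for Thbs2.
Among proteases and inhibitors it was 1.24 for Timp2, 0.52 for Timp3, 2.09 for Mmp2, 2.17 for Mmp14 and 2.07 for Adam33, and for the crosslinking enzymes 2.93 for Lox and 2.001 for Loxl1.
Among mesenchymal receptors and markers it was 1.75 for Pdgfra, 1.07 for Pdgfrb, 0.83 for Rgs5 and 2.04 for Vim, while for Cspg4 the pair with the smallest p was 3 DPA against 1 DPA, at 0.60.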

How the results depend on the processing

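Of 88 called values of named genes, none changed sign under any alternative; 88 stayed called with DESeq2, 74 with limma-voom, 78 with the replicate block and 58 without 1 DPA replicate 1, the fewest. Leaving out each library gave 0 to 1 genes higher and 5 to 37 lower at 1 DPA against CTRL, 0 to 1 higher and 0 to 2 lower at 3 DPA, 2 to 14 higher at 5 DPA, and 13 to 35 at 3 DPA against 1 DPA, 0 to 10 at 5 DPA against 3 DPA, 34 to 38 at 5 DPA against 1 DPA and 28 to 40 over the 4 groups. Over the same fits, 17.2% to 24.8% of all genes were lower at 1 DPA and 2.32% to 7.51% higher at 5 DPA against CTRL. The shares higher were 14.6% to 23.6% at 3 DPA against 1 DPA, 0.0171% to 2.19% at 5 DPA against 3 DPA and 21.5% to 28.3% at 5 DPA against 1 DPA.
Genes lower at 1 DPA against CTRL numbered 23 with DESeq2 and 9 with limma-voom. Genes higher at 5 DPA against CTRL numbered 22 with DESeq2, 12 with limma-voom, 4 with no filter and 0 with only the groups compared. The last also gave 0 at 3 DPA against CTRL (background 7.45%). At 5 DPA against 3 DPA, genes higher numbered 5 with DESeq2 (background 2.41%), 4 with only the groups compared (1.64%) and 0 with the replicate block (0.572%). In the other comparisons the same-numbered libraries did not all correlate over 0.1. Against CTRL, the replicate block gave 11 lower at 1 DPA (background 20.4%), 1 higher at 3 DPA (9.77%) and 8 higher at 5 DPA (5.21%). Against 1 DPA it gave 23 higher at 3 DPA (18.8%) and 37 higher at 5 DPA (24.8%). Without both CTRL replicate 3 and 5 DPA replicate 1, a choice made after seeing the data, 39 were lower at 1 DPA against CTRL (background 25%). Also against CTRL, 2 were higher (9.71%) and 2 lower (1.68%) at 3 DPA, and 3 were higher at 5 DPA (1.53%). The cause was not tested.
Signs turned for values that were not called. Without CTRL replicate 3, 12 of the 42 genes turned at 3 DPA against CTRL, Lox and Lum among them, 4 at 5 DPA and 0 at 1 DPA. For the genes given by library, at 3 DPA against CTRL, limma-voom gave 0.025 for Dcn, 0.28 for Pdgfra and 0.0052 for Acta2, and leaving out a library gave ranges of -0.096 to 0.79 for Col3a1, -0.035 to 0.18 for Col4a1, -0.046 to 1.01 for Fn1, -0.81 to 0.27 for Dcn, -0.070 to 0.32 for Sparc, -0.62 to 0.33 for Pdgfra and -1.49 to 0.69 for Acta2. Without both libraries the values there were -0.097 for Col3a1, -0.036 for Col4a1, -0.047 for Fn1 and -0.071 for Sparc. For Fn1 the range was -0.85 to 0.18 at 1 DPA against CTRL and -0.011 to 0.72 at 5 DPA against 3 DPA, and without both libraries it was -0.058 at 5 DPA against CTRL and -0.011 at 5 DPA against 3 DPA. At 5 DPA against CTRL, leaving out a library gave 0.29 to 1.37 for Fn1 and -1.74 to 0.46 for Acta2, and without both libraries Acta2 was at -1.82.
Library sizes without the 50 most abundant genes moved the median of all genes to -0.17 at 1 DPA against CTRL, 0.15 at 3 DPA against 1 DPA and 0.17 at 5 DPA against 1 DPA. The share of called genes that were higher became 43.4% in place of 56.6%, 59.8% in place of 45.3% and 60.8% in place of 46.9% in these comparisons, and 79.1% in place of 68.8% at 5 DPA against CTRL. The median of the 42 genes was then -0.91, 1.25 and 2.18 in the first 3.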
